A study of Saccharomyces cerevisiae with 43 samples.

Results

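A set of 10 budding yeast genes for J-domain proteins of the cytosol and of membranes that face it (YDJ1, XDJ1, APJ1, SIS1, HLJ1, CAJ1, DJP1, JJJ1, JJJ3 and SWA2) were followed through salt stress, recovery and peroxide stress on 43 spotted 2-colour microarrays. They were chosen by name, and the rows with their locus tags were taken from both value tables. All 10 were found among the 6903 genes of the series, of which 5604 were on the earlier array layout (first design) and 6868 on the later one (second design). YDJ1, XDJ1, SIS1, HLJ1, CAJ1, DJP1 and SWA2 had a value on each of the 32 arrays of the first design, APJ1 on 31, JJJ1 on 30 and JJJ3 on 29. Each of the 10 had a value on all 11 arrays of the second design.

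J-domain proteins are partners of the Hsp70 chaperones. The J domain, through a conserved histidine, proline and aspartate, makes Hsp70 hydrolyse ATP and close on its client, and the rest of each protein decides which client that is. Yeast has general members that serve protein folding and others that bring Hsp70 to a single task, such as ribosome assembly, modification of a translation factor or removal of clathrin coats. Location was not measured on these arrays, so the word cytosolic rests on general knowledge: Hlj1 sits in the endoplasmic reticulum membrane with its J domain in the cytosol.

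On the first design, all cells were BY4741 (a laboratory haploid, mating type a), grown in YPD for 3 doublings. Pretreated cells received 0.7 M NaCl for 60 min, recovered for 240 min without stress and then met 0.4 mM H2O2 for 10, 20, 30 or 40 min (3, 3, 2 and 2 arrays). Naive cells met the same H2O2 dose with no pretreatment (3, 3, 2 and 2 arrays). NaCl itself was followed at 15, 30, 45 and 60 min (1, 2, 2 and 1 arrays). Cells 240 min after NaCl and cells 240 min after a mock treatment were set against untreated cells (3 arrays each). On the second design, grown for at least 7 doublings, a strain without NUP42, a nuclear pore gene, and BY4741 each had naive and pretreated cells at 10 and 20 min of H2O2 and NaCl at 30 min, with 1 array per condition and 1 array of the 2 unstressed strains. Each value is a log2 ratio of the sample's channel over a second channel, so it says how a gene differed from its comparison sample and nothing of its level relative to other genes. The labels do not say whether replicate arrays came from separate cultures, so p-values measure the spread between arrays. In the labels 15 array codes are each shared by 2 arrays, among them pretreated cells at 10 and 20 min and at 30 and 40 min. The main fit took all arrays as independent, while the estimated correlation within a code was 0.53. Likeness between such times is therefore not independent evidence. Each SE and p-value uses 1 spread per gene, pooled over all groups of the first design and moderated over all genes. It is not the spread of the arrays compared alone, and n gives only the arrays of the group. Dyes were not swapped, so any steady dye bias of a gene remains in its ratio against 0. Fewer cells and less RNA per cell cannot be told apart in such bulk samples.

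The arrays of the first design held 4446 to 5575 values each, and those of the second 6500 to 6809. The SD of all log2 ratios on an array ran from 0.226, 240 min after NaCl, to 1.46, in pretreated cells at 40 min. The lowest correlation between 2 arrays of the first design was -0.34 (NaCl at 30 min against 240 min after NaCl); the labels state the dyes, and the direction was kept. NUP42 had log2 ratios of -5.36 before stress and -4.75 under NaCl on the arrays that set the deletion strain against BY4741. It ran from 0.17 to 1.23 where both channels held the deletion strain. Of the mating type a genes, STE2 ranged from -2.06 to 0.43 and MFA2 from -3.19 to 0.29 over the first design, and of the alpha genes STE3 ranged from -1.2 to 2.04. Ratios cannot show whether these markers are present, so the strain's mating type was not checked by them.

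H2O2 changed a mixed set of these genes, some up and some down. APJ1 and SIS1 were higher at each time in pretreated and in naive cells, HLJ1 at each time in naive cells and up to 30 min in pretreated cells. JJJ3 was lower in both kinds of cells from 20 min on wherever it could be tested. Counts of genes past the test (limma, Benjamini-Hochberg adjusted p under 0.05 over all genes) were close to those of the whole array at most times. At 10 min, 4 of 10 passed in pretreated cells, where 40.2% of all genes passed, and 3 of 10 in naive cells, where 33.7% did. At 20 min, 6 of 10 passed in pretreated cells, against 60.6% of all genes, and 6 of 10 in naive cells, against 54.6%. At 30 min, 6 of 10 passed in pretreated cells, against 62.3% of all genes, and 6 of 10 in naive cells, against 55.0%. At 40 min, 8 of 9 tested passed in pretreated cells, 6 higher and 2 lower, where 63.1% of all genes passed. In naive cells at 40 min 5 of 10 passed, 4 higher and 1 lower, where 61.2% of all genes passed. The median over the J-domain genes at 40 min was 0.63 in pretreated cells and 0.40 in naive cells, beside medians over all genes of -0.04 and -0.08. The pretreated median covers the 9 genes tested, without JJJ3, and the naive median all 10. Taken gene by gene, pretreated minus naive had a median of -0.425 over the 9, beside -0.05 over all genes. The 8 in pretreated cells at 40 min rest on 2 arrays: the count was 5 without the first array, 3 without the second and 4 when the spread of the 26 time-course arrays was made equal.

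**Figure D1:**
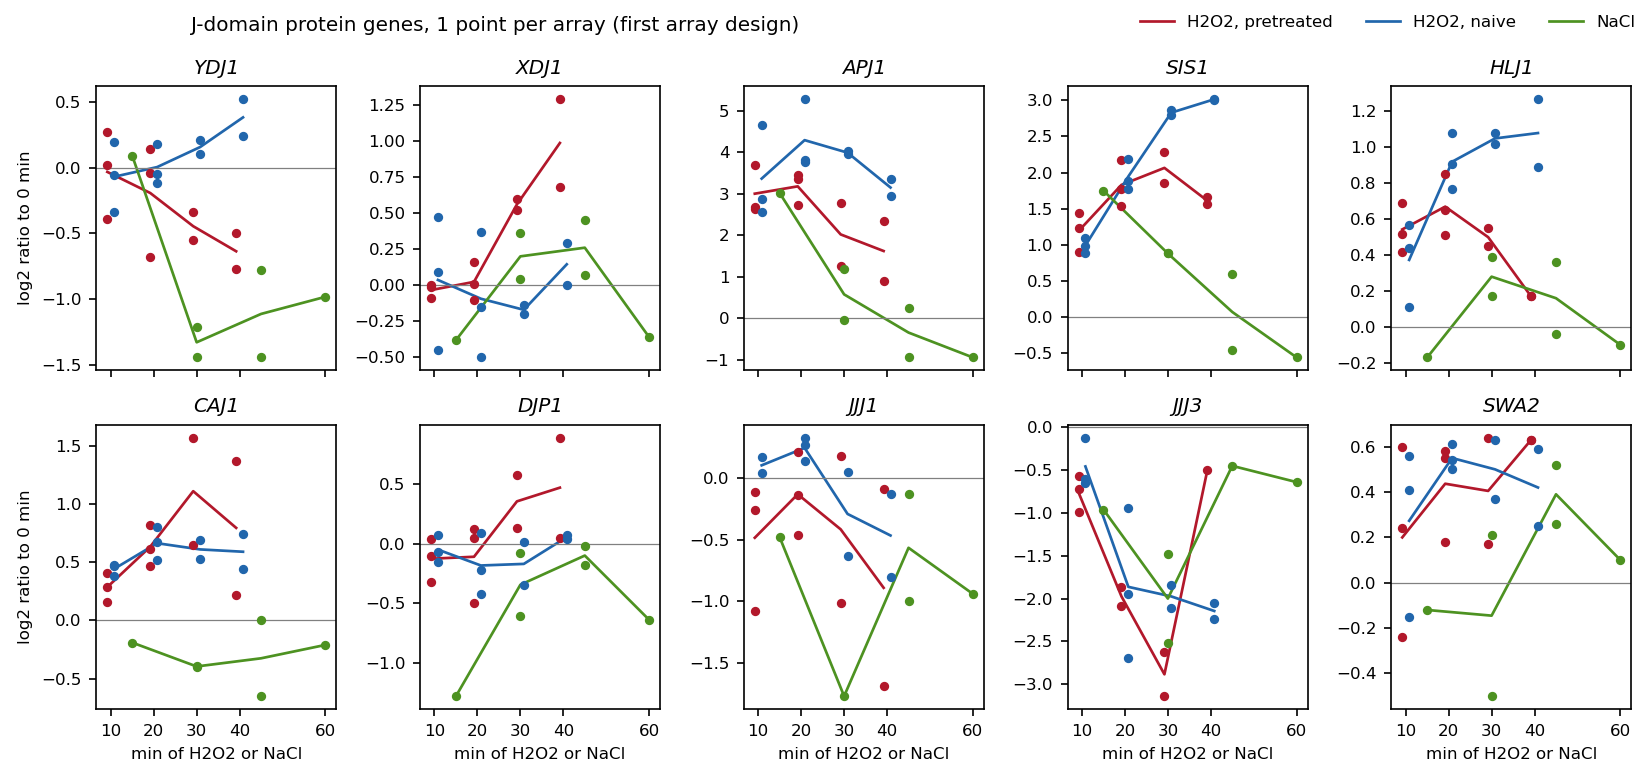
Log2 ratio to 0 min (vertical axis, own range per gene) against min of H2O2 or NaCl for the 10 genes, 1 point per array and lines through group means, for pretreated cells (red), naive cells (blue) and cells under NaCl (green). APJ1 and SIS1 lie above 0 on all 20 H2O2 arrays, while YDJ1 falls below 0 under NaCl at 30, 45 and 60 min.

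Ydj1 is the abundant general partner of the cytosolic Hsp70 proteins. In pretreated cells YDJ1 had log2 ratios of 0.27, 0.02 and -0.39 at 10 min, 0.14, -0.04 and -0.68 at 20 min, -0.55 and -0.34 at 30 min, and -0.77 and -0.50 at 40 min. In naive cells it had 0.19, -0.06 and -0.34 at 10 min, 0.18, -0.12 and -0.05 at 20 min, 0.21 and 0.10 at 30 min, and 0.52 and 0.24 at 40 min. The arrays of the 2 kinds of cells overlapped at 10 and 20 min and lay on opposite sides of 0 at 30 and 40 min. Of all genes tested at 30 min, 57.7% had no overlap between pretreated and naive arrays. No such share was counted at 10, 20 or 40 min, for this gene or those below. In pretreated cells the gene passed the test at 30 min, at -0.45 ± 0.18 (SE, n = 2, limma adjusted p = 0.041), and at 40 min, at -0.64 ± 0.18 (SE, n = 2, limma adjusted p = 0.0049). In naive cells it did not pass at any of the 4 times, with 0.38 ± 0.18 at 40 min (SE, n = 2, limma adjusted p = 0.079). The fall at 30 min was lost without either array of its group (adjusted p = 0.296 and 0.094 in limma), with arrays centred on their medians (0.084) and with equal spread of the 26 arrays (0.155). The fall at 40 min was lost without its first array (adjusted p = 0.117 in limma).

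Xdj1 is a close relative of Ydj1. XDJ1 stayed near 0 early on, and its log2 ratios on H2O2 arrays up to 20 min ran from -0.10 to 0.16 in pretreated cells and from -0.50 to 0.47 in naive cells. At 40 min XDJ1 had 0.68 and 1.29 in pretreated cells, against 0.00 and 0.29 in naive cells. The arrays did not overlap, and the share of all genes with no overlap was not counted at that time. Only the pretreated cells at 40 min passed the test, at 0.98 ± 0.25 (SE, n = 2, limma adjusted p = 0.0015), and without the second array this call was lost (adjusted p = 0.114).

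Apj1, a relative of Ydj1 that works with Hsp70 in clearing aggregates, had the largest rise of the 10 genes. APJ1 had log2 ratios in pretreated cells of 2.68, 2.64 and 3.70 at 10 min, 2.74, 3.35 and 3.46 at 20 min, 1.26 and 2.79 at 30 min, and 0.90 and 2.35 at 40 min. Naive cells had APJ1 at 2.87, 2.57 and 4.67 at 10 min, 3.77, 3.83 and 5.29 at 20 min, 3.96 and 4.03 at 30 min, and 3.37 and 2.94 at 40 min. All 20 values were above 0, and from 20 min on each pretreated array was below each naive array of its time. The share of all genes with no overlap was counted only at 30 min, and was 57.7% in either direction. The naive mean at 20 min was 4.30 ± 0.39 (SE, n = 3, limma adjusted p = 9.83e-09), a 19.7-fold rise, and APJ1 ranked 24 from the top of 5387 genes tested. The pretreated mean at 20 min was 3.18 ± 0.39 (SE, n = 3, limma adjusted p = 5.95e-07), a 9.08-fold rise, at rank 92 of 5449. The third array of each group at 10 and 20 min belongs to another array series in the labels and gave the highest APJ1 value in each of the 4 groups. In pretreated cells the later calls lean on 1 array: without the second array the adjusted p was 0.117 at 30 min and 0.273 at 40 min.

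Sis1, the essential J-domain protein that works on misfolded proteins and prions and holds the heat-shock factor in check together with Hsp70, rose more slowly. In pretreated cells SIS1 had log2 ratios of 1.44, 0.90 and 1.23 at 10 min, 2.18, 1.77 and 1.54 at 20 min, 1.85 and 2.28 at 30 min, and 1.56 and 1.66 at 40 min. Naive cells had SIS1 at 1.10, 0.99 and 0.88 at 10 min, 2.19, 1.77 and 1.88 at 20 min, 2.86 and 2.80 at 30 min, and 3.02 and 3.01 at 40 min. The groups overlapped at 10 and 20 min and were apart at 30 and 40 min, with the pretreated cells lower. Groups were apart for 57.7% of all genes tested at 30 min, in either direction, and this was not counted at 40 min. Means in pretreated cells were 1.19, 1.83, 2.06 and 1.61 from 10 to 40 min (SE 0.16, 0.16, 0.19 and 0.19), all past the test. Means in naive cells were 0.99, 1.95, 2.83 and 3.02 with the same SEs, also all past the test. The naive mean at 40 min was an 8.08-fold rise (limma adjusted p = 2.79e-11), against 3.05-fold in pretreated cells (limma adjusted p = 2.11e-07).

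Hlj1 serves degradation of proteins at the endoplasmic reticulum, and its gene also rose under H2O2 on the first design, by less than SIS1. HLJ1 had log2 ratios in pretreated cells of 0.52, 0.42 and 0.69 at 10 min, 0.65, 0.85 and 0.51 at 20 min, 0.55 and 0.45 at 30 min, and 0.17 on both arrays at 40 min. Naive cells had HLJ1 at 0.44, 0.11 and 0.57 at 10 min, 1.08, 0.77 and 0.91 at 20 min, 1.08 and 1.02 at 30 min, and 1.27 and 0.89 at 40 min. All 20 values were above 0. The 2 kinds of cells were apart at 30 min, as for 57.7% of all genes tested, and at 40 min, where no share was counted. The mean at 40 min was 0.17 ± 0.14 in pretreated cells (SE, n = 2, limma adjusted p = 0.294) and 1.08 ± 0.14 in naive cells (SE, n = 2, limma adjusted p = 8.38e-07). The call at 10 min in naive cells was lost without the first array (adjusted p = 0.088) and without the third (0.15), and that at 30 min in pretreated cells without the first (0.064).

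CAJ1, DJP1 and SWA2 had smaller ratios. CAJ1 was above 0 on all 20 H2O2 arrays, from 0.16 to 1.57 in pretreated cells and from 0.38 to 0.80 in naive cells. It passed the test at 20, 30 and 40 min in both, with means of 0.63, 1.11 and 0.80 in pretreated cells and 0.66, 0.61 and 0.59 in naive cells. Its calls at 30 and 40 min depended on single arrays: without the second pretreated array the adjusted p was 0.057 at 30 min and 0.503 at 40 min, and both naive calls at those times were lost on leaving out either array of the group (0.054 to 0.246). Djp1, a factor of peroxisomal protein import, ranged from -0.50 to 0.89 in pretreated cells and from -0.42 to 0.09 in naive cells. DJP1 passed only in pretreated cells at 40 min, at 0.47 ± 0.20 (SE, n = 2, limma adjusted p = 0.042), from arrays at 0.05 and 0.89, and without the second the value was 0.05 (adjusted p = 0.892). Swa2, the yeast auxilin, which brings Hsp70 to clathrin coats, ranged from -0.24 to 0.64 in pretreated cells and from -0.15 to 0.63 in naive cells. SWA2 passed at 20 and 40 min in pretreated cells (0.44 and 0.63) and at 20 and 30 min in naive cells (0.55 and 0.50). Each of these 4 calls was lost on leaving out at least 1 array of its group, with adjusted p between 0.051 and 0.36.

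Jjj1 helps release assembly factors from the large ribosomal subunit in the cytosol. JJJ1 had log2 ratios in pretreated cells of -1.08, -0.26 and -0.11 at 10 min, 0.21, -0.14 and -0.46 at 20 min, -1.01 and 0.18 at 30 min, and -1.69 and -0.09 at 40 min. In naive cells it had 0.17 and 0.04 at 10 min, 0.14, 0.27 and 0.33 at 20 min, -0.63 and 0.05 at 30 min, and -0.80 and -0.13 at 40 min. Replicates differed by over 1 in pretreated cells at 30 and 40 min, so the one call, -0.89 ± 0.33 in pretreated cells at 40 min (SE, n = 2, limma adjusted p = 0.022), rests on the first array: without it the value was -0.09 (adjusted p = 0.863).

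Jjj3, also called Dph4, takes part in making diphthamide, the modified histidine of elongation factor 2, and its transcript was the one that fell most. In pretreated cells JJJ3 had log2 ratios of -0.99, -0.57 and -0.72 at 10 min, -1.86 and -2.09 at 20 min, -3.14 and -2.63 at 30 min, and a single value of -0.50 at 40 min. Naive cells had JJJ3 at -0.12, -0.60 and -0.65 at 10 min, -0.94, -1.95 and -2.70 at 20 min, -2.11 and -1.84 at 30 min, and -2.24 and -2.05 at 40 min. Each of its values under H2O2 was below 0. The mean at 30 min was -2.88 ± 0.28 in pretreated cells (SE, n = 2, limma adjusted p = 5.31e-08) and -1.98 ± 0.28 in naive cells (SE, n = 2, limma adjusted p = 8.62e-06), falls of 7.39-fold and 3.93-fold. At 30 min it ranked 49 from the bottom of 5300 genes in pretreated cells and 117 of 5209 in naive cells. The smaller fall at 10 min in pretreated cells (-0.76) was lost without the first array (adjusted p = 0.096) or the third (0.052).

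**Figure D2:**
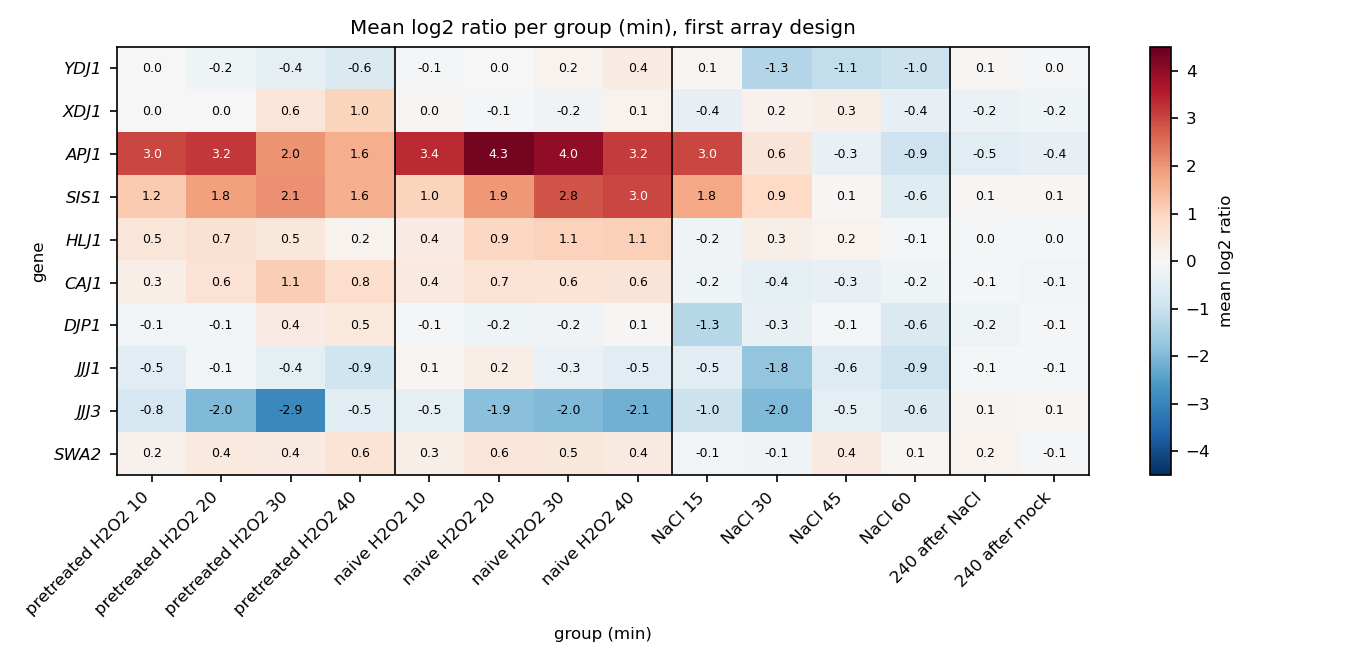
Mean log2 ratio (colour and number) of each gene (rows) in the 14 groups of the first design (columns, min of treatment); groups hold 1 to 3 arrays. APJ1 and SIS1 are the red rows, JJJ3 is the blue row under H2O2 and NaCl, and means lie within 0.5 of 0 in both groups at 240 min.

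The question the pretreatment addresses is whether an earlier NaCl dose changes the later response to H2O2. The response of pretreated cells was set against that of naive cells at each time, each relative to its own 0 min. No J-domain gene passed at 10 min, where 0.229% of all genes did, at 20 min (3.76%) or at 30 min (8.93%). Unadjusted limma p-values were under 0.05 for 0, 0 and 6 of the 10 genes at these times. Over all genes tested they were so for 500 of 5241, 1228 of 5298 and 1238 of 4952. At 40 min, 3 of 9 tested passed, all lower in pretreated cells, where 11.9% of all genes passed. SIS1 was lower by the most among them, with a difference of -1.41 ± 0.27 (SE, 2 arrays each, limma adjusted p = 0.0021). YDJ1 differed by -1.01 ± 0.26 (SE, 2 arrays each, limma adjusted p = 0.0129). HLJ1 differed by -0.91 ± 0.20 (SE, 2 arrays each, limma adjusted p = 0.0041). JJJ3 was not tested at 40 min, since pretreated cells had 1 value.

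These 3 calls lean on how the arrays are weighed. None of them passed when only the 4 arrays compared were fitted, with adjusted p of 0.108 for SIS1, 0.117 for YDJ1 and 0.126 for HLJ1 (limma). None passed when the spread of the 26 time-course arrays was made equal, with differences of -1.10, -0.74 and -0.69 and adjusted p of 0.0702, 0.146 and 0.085 (limma). On the 4 arrays at 40 min the SD of all ratios was 1.44 and 1.46 in pretreated cells and 1.26 and 1.35 in naive cells; the part of this in the result was not tested. Only SIS1 passed without the first pretreated array or without the first naive array. Fits that left out 1 array also accepted genes with 1 value in a group, and so could let in JJJ3. Its 1 pretreated value at 40 min was -0.50, above the naive values of -2.24 and -2.05, the opposite direction to the 3 genes. The other genes at 40 min did not pass: APJ1 at -1.53 ± 0.67 (SE, adjusted p = 0.146), XDJ1 at 0.84 ± 0.35 (SE, adjusted p = 0.126), and CAJ1, DJP1, JJJ1 and SWA2 between -0.42 and 0.41 (limma, 2 arrays each). With the array series of the labels as a block APJ1 also passed, at the same difference (adjusted p = 0.046 in limma).

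At 30 min the largest difference was that of APJ1, at -1.97 ± 0.67 (SE, 2 arrays each, limma adjusted p = 0.07), which ranked 9 from the bottom of 4952 genes. SIS1, at -0.77 ± 0.27, and HLJ1, at -0.55 ± 0.20, did not pass either (adjusted p = 0.082 and 0.081 in limma, 2 arrays each). The arrays of pretreated and naive cells did not overlap for YDJ1, XDJ1, APJ1, SIS1, HLJ1, DJP1 and JJJ3 at this time, 7 of 10, where 57.7% of all genes tested did not overlap. With the array code of the labels as a random block, APJ1, SIS1, HLJ1 and YDJ1 passed (-2.15, -0.92, -0.65 and -0.72, with adjusted p of 0.019, 0.035, 0.041 and 0.049 in limma). APJ1 also passed with the array series as a block (adjusted p = 0.015 in limma) and without the second pretreated array, at -2.74 (0.041). At 20 min APJ1 differed by -1.11 ± 0.55 (SE, 3 arrays each, limma adjusted p = 0.226), with -0.76 within one array series of the labels and -1.83 within the other, which had 1 array per group.

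Pretreated and naive cells at 10 and 20 min were also compared in level, by adding the ratio of recovered over untreated cells to the pretreated response. No J-domain gene passed at either time, where 0% and 0.227% of all genes passed (limma). An unadjusted limma p under 0.05 was found for 382 of 5237 genes at 10 min and 844 of 5280 at 20 min. Of the 10 J-domain genes, 0 and 1 were among them. SIS1 differed in level by 0.26 ± 0.27 at 10 min and by -0.06 ± 0.27 at 20 min (SE), and APJ1 by -0.82 ± 0.67 and -1.57 ± 0.67 (SE).

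**Figure D3:**
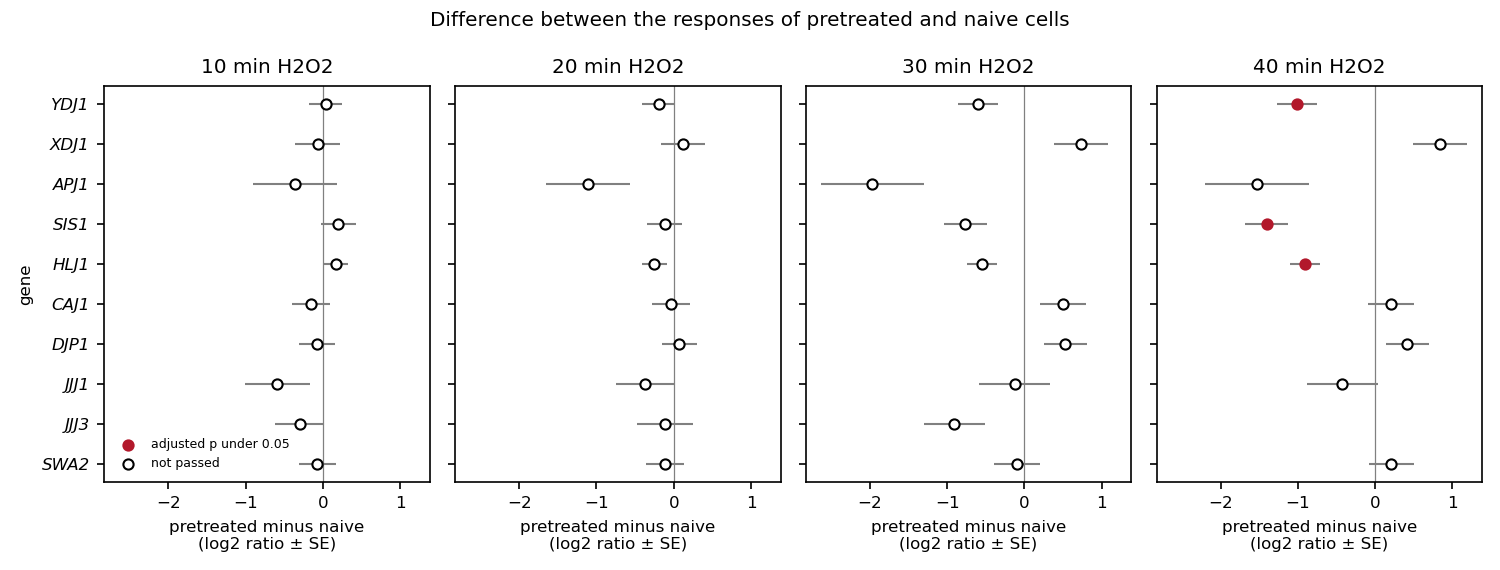
Difference in log2 ratio between pretreated and naive cells (horizontal axis, points with SE bars) for the 10 genes (rows) at 10, 20, 30 and 40 min of H2O2; filled red points passed at an adjusted p under 0.05. Filled points are SIS1, YDJ1 and HLJ1 at 40 min, all left of 0, and JJJ3 has no point at 40 min.

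NaCl gave these genes another pattern, with YDJ1 down and the rises of APJ1 and SIS1 brief. At 15 min, on 1 array, APJ1 was at 3.02 and SIS1 at 1.75, while DJP1 was at -1.28 and YDJ1 at 0.09. At 30 min, 3 of 9 tested passed, 1 higher and 2 lower, where 52.3% of all genes passed, and JJJ1 was not tested since it had 1 value (-1.77). At 45 min, 1 of 9 passed, where 37.8% of all genes did, and JJJ3 was not tested. YDJ1 had log2 ratios of -1.44 and -1.21 at 30 min, -1.44 and -0.78 at 45 min and -0.98 at 60 min. All 5 lay below every YDJ1 value of the H2O2 arrays. The mean at 30 min was -1.32 ± 0.18 (SE, n = 2, limma adjusted p = 2.92e-06), a fall of 2.51-fold, and at 45 min -1.11 ± 0.18 (SE, n = 2, limma adjusted p = 6.32e-05).

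SIS1 was at 0.88 on both arrays at 30 min of NaCl (SE 0.19, n = 2, limma adjusted p = 5.81e-04), at -0.46 and 0.60 at 45 min and at -0.56 at 60 min. APJ1 was at -0.04 and 1.20 at 30 min, at -0.94 and 0.26 at 45 min and at -0.94 at 60 min, and did not pass at 30 or 45 min. JJJ3 was at -2.52 and -1.48 at 30 min (mean -2.0 ± 0.28, SE, n = 2, limma adjusted p = 5.75e-06), with single values of -0.45 at 45 min and -0.64 at 60 min. The SIS1 call at 30 min was lost when the spread of all 32 arrays was made equal (adjusted p = 0.062 in limma). The other genes tested at 30 min had means between -0.40 for CAJ1 and 0.28 for HLJ1.

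The 2 stresses were compared directly at 30 min, as NaCl minus naive H2O2. Of 9 genes tested, 5 passed, all lower under NaCl, where 44.6% of all genes passed in either direction. APJ1 differed by -3.42 ± 0.67 (SE, 2 arrays each, limma adjusted p = 3.86e-04), and SIS1 by -1.95 ± 0.27 (SE, 2 arrays each, limma adjusted p = 1.08e-05). YDJ1 differed by -1.48 ± 0.26, HLJ1 by -0.77 ± 0.20 and CAJ1 by -1.0 ± 0.30 (SE, adjusted p = 1.29e-04, 0.0032 and 0.0101 in limma). For each of these 5, both NaCl arrays lay below both naive H2O2 arrays, as they did for SWA2, which makes 6 of 9, where 42.1% of all genes tested lay so. The CAJ1 call was lost without the first NaCl array (adjusted p = 0.055) or the second naive array (0.069). JJJ3, low in both stresses, differed by -0.03 ± 0.39 (SE, limma adjusted p = 0.963). SWA2 differed by -0.65 ± 0.30 (SE, limma adjusted p = 0.081) and passed without the first NaCl array (-1.0, adjusted p = 0.037).

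After 240 min without stress the 10 genes had ratios near 0. Cells 240 min after NaCl had 0 of 10 past the test (0% of all genes), cells 240 min after mock treatment 0 of 10 (0%), and the difference between them 0 of 10 (0%). By limma with no adjustment, 473 of 5583, 205 of 5438 and 44 of 5425 genes tested had p under 0.05 in these comparisons, and none of the J-domain genes did. APJ1 was at -0.45, -0.67 and -0.26 after NaCl and at -0.47 and -0.29 after mock treatment, below 0 on all 5 arrays that had a value. SIS1 was at 0.32, 0.06 and -0.21 after NaCl and at 0.21, 0.10 and -0.01 after mock treatment. YDJ1 lay between -0.12 and 0.12 on these 6 arrays, and JJJ3 between 0.09 and 0.16. The difference between recovered and mock cells was 0.24 ± 0.24 (SE) for SWA2 and between -0.15 and 0.10 for the other 9.

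The second design had 1 array per condition, so its values carry no test. Genes are counted there when the log2 ratio is past 1 in either direction. Without stress, in the NUP42 deletion strain over BY4741, no J-domain gene passed this size, where 3.10% of all genes did, and the 10 values lay between -0.34 for YDJ1 and 0.23 for SIS1. Under H2O2 the deletion strain's pretreated and naive arrays all share 1 comparison sample, deletion cells recovered from NaCl, and the 4 BY4741 arrays share untreated BY4741 cells. Ratios of the 2 strains are therefore on different bases, and each strain's own values are given side by side.

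In the deletion strain, 1 gene of 10 was past 1 in pretreated cells at 10 min (7.18% of all genes) and 1 in naive cells (5.69%). At 20 min it was 3 in pretreated cells (17.5% of all genes) and 3 in naive cells (15.6%). In BY4741 the counts at 10 min were 3 in pretreated cells (12.6%) and 1 in naive cells (5.66%). At 20 min they were 4 in pretreated cells (31.9%) and 3 in naive cells (12.3%). APJ1 was past 1 on all 8 arrays. In the deletion strain APJ1 was at 2.04 in pretreated and 2.28 in naive cells at 10 min, and at 2.89 and 3.52 at 20 min. In BY4741 it was at 2.39 in pretreated and 2.07 in naive cells at 10 min, and at 2.10 and 3.44 at 20 min. At 20 min APJ1 was thus lower in pretreated than in naive cells in both strains, by 0.63 in the deletion strain and 1.34 in BY4741, from single arrays.

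SIS1 was at 0.55 in pretreated and 0.43 in naive deletion cells at 10 min, and at 1.41 in both at 20 min. In BY4741 SIS1 was at 1.52 in pretreated and 0.71 in naive cells at 10 min, and at 2.03 and 1.77 at 20 min. Pretreated minus naive was 0.12 at 10 min and -0.01 at 20 min in the deletion strain, against 0.81 and 0.26 in BY4741. On the first design, with each response against its own 0 min, BY4741 means were 1.19 pretreated and 0.99 naive at 10 min. At 20 min they were 1.83 and 1.95. The SD of all ratios on the BY4741 arrays was 0.77 pretreated and 0.54 naive at 10 min, and 1.22 and 0.80 at 20 min. In the deletion strain it was 0.55 on both at 10 min, and 0.88 and 0.85 at 20 min. The part of this in the differences was not tested. JJJ3 at 20 min was at -1.70 in pretreated and -1.35 in naive deletion cells, and at -3.10 and -1.83 in BY4741. JJJ1 was past 1 on 1 H2O2 array, that of pretreated BY4741 cells at 20 min (-1.02). YDJ1, XDJ1, CAJ1, DJP1 and SWA2 stayed within 0.5 of 0 on all 8 arrays, and HLJ1 reached 0.53.

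Under NaCl at 30 min, 4 of 10 genes were past 1 in the deletion strain (34.0% of all genes) and 4 of 10 in BY4741 (36.6%). The deletion strain was set against recovered BY4741 cells, per the labels, and BY4741 against untreated cells, so the strain differs between the channels of the first only. YDJ1 was at -0.73 in the deletion strain and -1.56 in BY4741. JJJ3 was at -2.88 and -2.84 in these strains, JJJ1 at -1.40 and -1.55, SIS1 at 1.55 and 1.02, and APJ1 at 1.73 and 0.87. JJJ3, JJJ1 and SIS1 were past 1 in both, joined by APJ1 in the deletion strain and by YDJ1 in BY4741.

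**Figure D4:**
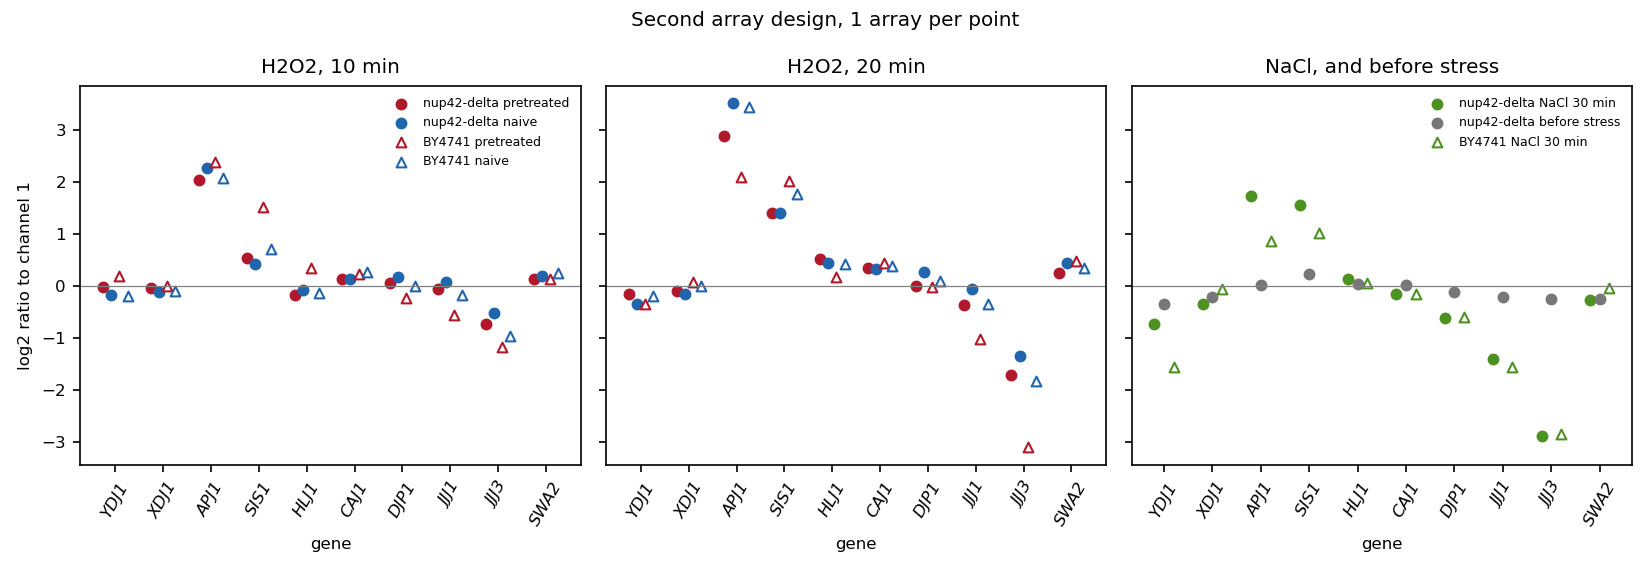
Log2 ratio to channel 1 (vertical axis) for the 10 genes (horizontal axis) on the second design, 1 array per point, at 10 and 20 min of H2O2 and at 30 min of NaCl or before stress; circles are the NUP42 deletion strain and triangles BY4741. APJ1 is the highest gene in each H2O2 condition and JJJ3 the lowest, with BY4741 pretreated cells at -3.10 at 20 min.

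The 10 genes were not alike among themselves. Over the means of the 14 groups of the first design, Pearson's r was 0.85 between APJ1 and SIS1, 0.79 between SIS1 and HLJ1, 0.78 between CAJ1 and SWA2 and 0.77 between XDJ1 and DJP1. These groups share stresses and arrays, and r is a description. Among 5086 genes with a value in every group, SIS1 was most like LST8 (r = 0.98), the gene next to it on the chromosome in the RefSeq table, then CUR1, whose product sorts Sis1 and its clients to the nucleus, and STI1, a co-chaperone of Hsp90 and Hsp70 (r = 0.98 each). APJ1 was most like ROQ1 (r = 0.96), the uncharacterised YBL029C-A (0.95) and ROX1 (0.94), a repressor of hypoxic genes. JJJ1 was most like BUD20 (r = 0.96), a gene of large ribosomal subunit export, then PXR1 and FPR4. JJJ3 was most like VIK1 (r = 0.91), GCV2 and CCT8, and YDJ1 most like GPM1 (r = 0.94), a glycolytic enzyme, CYS3 and TAL1. HLJ1 was most like PAA1 (r = 0.96), RAD6 and UBC6, the last a ubiquitin-conjugating enzyme of the endoplasmic reticulum. CAJ1 was most like IMP21 (r = 0.98), NAP1 and BUG1, and XDJ1 most like RPT2 (r = 0.91), a proteasome subunit, PHB2 and SLF1. SWA2 was most like PRE3 (r = 0.90), SEM1 and SCL1, all proteasome genes, and DJP1 most like MCX1 (r = 0.91), MRPL19 and RSM25, genes of mitochondrial proteins.

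Partner genes were counted in lists by function. At 40 min of H2O2, of the cytosolic Hsp70 proteins and their exchange factors, 4 of 11 were higher and 3 lower in pretreated cells (median -0.24), where 63.1% of all genes passed (median -0.04). In naive cells 7 were higher and 3 lower (median 0.52), where 61.2% of all genes passed (median -0.08). SSA4, the stress-induced Hsp70, was at 5.23 ± 0.43 in pretreated and 5.50 ± 0.43 in naive cells (SE, n = 2 each, limma adjusted p = 6.21e-10 and 5.69e-10). Between pretreated and naive cells 7 of the 11 were lower and none higher at 40 min, with a median of -0.77 beside -0.05 over all genes and 11.9% of genes passing. FES1, an exchange factor, differed most, at -1.71 ± 0.30 (SE, 2 arrays each, limma adjusted p = 0.0015). Of chaperone and other genes known as heat-shock factor targets, 7 of 10 tested were higher and 2 lower in pretreated cells at 40 min (median 0.81). In naive cells 10 of 12 were higher (median 2.06), so the 2 medians cover unlike sets of genes. In the comparison, 4 of 10 were lower in pretreated cells and none higher, with a median of -0.69 beside -0.05 over all genes. MBF1 had the lowest difference, at -1.27 ± 0.26 (SE, 2 arrays each, limma adjusted p = 0.0026).

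The 11 further J-domain genes, of the mitochondria, the endoplasmic reticulum, the nucleus and the ribosome, also held genes of both directions. At 40 min 3 of 10 tested were higher and 5 lower in pretreated cells, where 63.1% of all genes passed, against 4 higher and 4 lower in naive cells, where 61.2% did. Shares this close to those of all genes say nothing particular of the list. MDJ1, the mitochondrial matrix partner of Hsp70, was highest in both, at 1.19 ± 0.29 in pretreated and 2.27 ± 0.29 in naive cells (SE, n = 2 each, limma adjusted p = 0.0011 and 7.58e-07). ZUO1, the ribosome-bound J-domain protein, was the one that differed between them, at -1.18 ± 0.33 (SE, 2 arrays each, limma adjusted p = 0.021), and was also lowest under NaCl at 30 min, at -2.25 ± 0.23 (SE, n = 2, limma adjusted p = 6.98e-08).

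Partners of the single-task members gave the counts that follow, beside 63.1% of all genes passing in pretreated cells and 61.2% in naive cells at 40 min, and 52.3% at 30 min of NaCl. All 9 genes of late large-subunit assembly, where Jjj1 acts, were lower at 40 min in pretreated cells (median -3.06), in naive cells (median -1.71) and at 30 min of NaCl (median -2.29). NOG1 was lowest in pretreated cells, at -4.59 ± 0.30 (SE, n = 2, limma adjusted p = 3.58e-11). Of 6 genes of diphthamide synthesis, where Jjj3 acts, 4 were lower at 40 min in pretreated cells and 5 in naive cells, with DPH1 at -3.27 ± 0.22 in pretreated cells (SE, n = 2, limma adjusted p = 1.09e-10). Of 8 genes of peroxisomal matrix import, where Djp1 acts, 7 were higher at 40 min in pretreated cells (median 0.71) and 7 in naive cells (median 0.87). Of 7 clathrin coat genes tested, 4 were higher and 1 lower in pretreated cells at 40 min (median 0.44), and 3 higher and 1 lower in naive cells (median 0.17). The clathrin count of both directions in pretreated cells was thus near the share of all genes. The diphthamide count was of lower genes only. Of all genes at 40 min in pretreated cells, 1489 of 5013 tested were higher and 1676 lower. The median of the diphthamide genes was -2.01 in pretreated cells, beside -0.04 over all genes, and -1.29 in naive cells, beside -0.08.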

How the data were processed

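The deposited values are log2 ratios, made by the authors from 2-colour spotted arrays labelled with 2 Oyster dyes (channel 2 over channel 1, per the labels). The log base is inferred from the values, and no label or header names the normalization. Columns were matched to samples by title, and 0 columns stayed unmatched. The 10 members and the 9 gene lists (partner genes, further J-domain genes and mating type genes) were chosen with earlier results of these data known. The 14 group means of the first design came from 1 limma fit (lmFit, eBayes; version 3.58.1, R 4.3.3) to its 32 arrays; a gene was tested where each group compared had at least 2 values, and p-values were adjusted by Benjamini-Hochberg over all genes tested (20 comparisons, passing under 0.05, 2-sided). Missing values were left out, not imputed. The second design had no test, and a log2 ratio past 1 was counted. All 10 members are named; for each, the 3 genes nearest by Pearson correlation over 14 group means; and of each list at most 2 genes, those with its largest or smallest mean. Gene names came from the RefSeq table; no sequence was read. The fit was tested on simulated data. Alternatives were array centring, equal spread, blocks, gene filters and leaving out arrays; equal spread of 26 arrays and a single array series were chosen after seeing the data.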

Additional observations from a re-analysis of the deposited data

Results flagged for a closer look

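Pretreated and naive cells moved to opposite sides of 0 on all their arrays in a few cases, and in others the difference itself passed the test. The share of all genes on opposite sides of 0 was not counted, so those cases have no background. At 30 min, arrays of the 2 kinds of cells did not overlap for 57.7% of all genes tested. JJJ1 at 10 min of H2O2 was below 0 on 3 of 3 pretreated arrays and above 0 on 2 of 2 naive arrays, a difference of -0.59 (limma adjusted p = 0.741, not passed). YDJ1 at 30 min was below 0 on both pretreated arrays and above 0 on both naive arrays, a difference of -0.60 (limma adjusted p = 0.156, not passed). XDJ1 at 30 min was above 0 on both pretreated arrays and below 0 on both naive arrays, a difference of 0.73 (limma adjusted p = 0.198, not passed). At 40 min the differences of -1.01 for YDJ1, -1.41 for SIS1 and -0.91 for HLJ1 passed in limma over all genes (adjusted p = 0.0129, 0.0021 and 0.0041), with 2 arrays in each group. No group had 4 or more arrays, so single arrays were not tested as outliers.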

How the results depend on the processing

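Of 2350 recomputed values of single genes, 2237 kept their side of the threshold, 79 lost a call, 34 gained one and 0 changed sign while called. A change of sign in a value that was not called was not counted. Making the spread of the 32 arrays equal, which enlarges the recovery arrays, gave 5 genes in place of 3 in naive cells at 10 min, 1 in place of 8 in pretreated cells at 40 min, 0 in place of 3 for pretreated minus naive at 40 min, 2 in place of 0 after NaCl recovery and 3 in place of 5 for NaCl minus H2O2. With the 26 time-course arrays these were 5, 4 and 0 for the first 3. Fitting only the arrays compared gave 4 in pretreated cells at 40 min and 0 for the difference at 40 min. With genes valued on all 32 arrays, which leaves 7 of the members, the counts were 3 in naive cells at 40 min and 2 in pretreated cells at 10 min. For pretreated minus naive at 30 min the count was 1 with the array series and 4 with the array code as a block. Leaving out each array gave 3 to 4 in place of 6 in pretreated cells at 30 min, 3 to 5 in place of 8 at 40 min, 0 to 1 for the difference at 30 min and 1 to 4 at 40 min. On the second design with equal spread, genes past 1 were 3 in naive BY4741 cells and 2 in pretreated deletion cells at 10 min, and 1 in each strain under NaCl.

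With replicate numbers as a replicate block, the difference counted 2 genes at 30 min (APJ1 and SIS1, limma adjusted p = 0.018 and 0.044) and 5 at 40 min, where APJ1 and XDJ1 joined the 3 (limma adjusted p = 0.047 and 0.042). Same-numbered arrays had deviations correlated between -0.03 and 0.56, and other-numbered arrays between -0.44 and 0.31. Deviations were taken from the mean of the array's own group of 2 or 3, so these values do not settle whether the numbers pair the samples. The number of arrays limits precision, and signal over background is not in the values.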
